A study of Mus musculus with 9 samples.

Results

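The 7 genes described here form a set of cardiomyocyte stress genes: the natriuretic peptides Nppa and Nppb, Ankrd1, Acta1, Xirp2, Flnc and Tnfrsf12a. They were taken by symbol from the 32285 genes of the deposited feature lists and were not chosen by a threshold on any value. The choice was made with earlier results of these data known, so counts of the 7 set against all genes are descriptions. The 7 genes were measured by single-nucleus RNA sequencing of mouse hearts in 3 groups of 3 hearts each, all from male wild-type mice aged 9 to 10 weeks. NS-Sham hearts (sham) received normal saline and had a thoracotomy without occlusion. NS-I/R hearts (saline-injured) received normal saline, and the left anterior descending coronary artery was occluded for 45 min and reperfused for 24 h (ischemia/reperfusion). Enpa-I/R hearts (enpatoran-treated) had the same injury, and the mice received 5 mg/kg of enpatoran, an inhibitor of Toll-like receptor TLR7. Each mouse received 2 intraperitoneal injections, the first 1 h before ischemia, and the labels give 2 different times for the second. No sham heart received enpatoran, so effects of the drug without injury were not measured. Nuclei came from powder of whole frozen hearts, so injured and remote muscle, ventricles and atria were not separated.

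The 9 libraries held 19651794 to 38970153 unique molecular identifiers (UMIs, the counted RNA molecules), and 41979 of 56766 barcodes were kept. Of these, 9376 nuclei formed 4 clusters named cardiomyocyte-like from their markers, 620 to 1451 per library, with 8081564 to 16832535 UMIs per library. Clustering used none of the 7 genes. Nppa and Xirp2 overlap the genes Gm13054 and Gm13601 on the opposite strand, and reads of overlapping genes cannot be told apart where strand use is not stated. Levels are given as CPM (counts per 1e6 UMIs) over the summed cardiomyocyte-like nuclei of a library, scaled by edgeR's trimmed mean of M-values, and each ± is an SD over the 3 libraries of a group. The third saline-injured library stood apart: its summed counts differed from the other saline-injured libraries by a chi-square per degree of freedom of 59.6 and 66.8, against 7.73 to 18.6 for all other pairs within a group. In the cardiomyocyte-like nuclei the summed level of the 10 cardiomyocyte markers was 70822 to 75760 CPM in sham hearts, 43268 to 58287 CPM in saline-injured hearts and 64078 to 68851 CPM in enpatoran-treated hearts. The 6 neutrophil markers summed to 0.416 to 2.11, 23.2 to 65.5 and 15.3 to 27.3 CPM in the same order, and the 6 smooth muscle markers to 8.55 to 18.2, 64.6 to 132 and 36.7 to 47.5 CPM. Their part in the results was not tested.

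Nppa and Nppb encode the precursors of atrial and B-type natriuretic peptide, hormones that relax vessels and promote salt excretion; ventricular muscle makes more of both under wall stress. Ankrd1 encodes a titin-associated ankyrin repeat protein that also acts in the nucleus, and Acta1 encodes skeletal muscle alpha-actin, which is abundant in the developing heart. Xirp2 (an actin-binding Xin repeat protein) and Flnc (filamin C, an actin cross-linker) encode proteins of the intercalated disc and Z-disc, where muscle cells anchor their filaments and repair them. Tnfrsf12a encodes Fn14, the receptor for the cytokine TWEAK.

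The 250 bases before the annotated start of 4 of the genes are shown because they hold sequence motifs known for muscle and stress-responsive promoters. They are RefSeq promoter sequences of build GRCm38.p6, printed in the direction of transcription with motif matches in capitals: Nppa at chr4:148000472-148000721 on the forward strand, Nppb at chr4:147985650-147985899 on the forward strand, Ankrd1 at chr19:36119845-36120094 on the reverse strand and Acta1 at chr8:123894776-123895025 on the reverse strand.
Nppa: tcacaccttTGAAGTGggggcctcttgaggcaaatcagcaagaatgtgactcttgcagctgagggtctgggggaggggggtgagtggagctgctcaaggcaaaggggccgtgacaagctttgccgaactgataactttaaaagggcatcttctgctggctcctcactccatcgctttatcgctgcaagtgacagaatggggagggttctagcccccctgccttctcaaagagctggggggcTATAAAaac
Nppb: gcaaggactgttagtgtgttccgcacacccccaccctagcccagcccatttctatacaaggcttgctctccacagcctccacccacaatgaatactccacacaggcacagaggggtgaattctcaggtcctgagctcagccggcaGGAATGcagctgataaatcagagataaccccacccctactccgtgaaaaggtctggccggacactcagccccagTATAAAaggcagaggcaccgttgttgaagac
Ankrd1: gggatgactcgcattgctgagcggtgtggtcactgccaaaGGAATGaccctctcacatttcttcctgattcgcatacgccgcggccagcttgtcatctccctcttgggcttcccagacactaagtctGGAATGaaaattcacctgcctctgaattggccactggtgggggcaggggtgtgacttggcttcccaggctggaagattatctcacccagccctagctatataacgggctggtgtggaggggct
Acta1: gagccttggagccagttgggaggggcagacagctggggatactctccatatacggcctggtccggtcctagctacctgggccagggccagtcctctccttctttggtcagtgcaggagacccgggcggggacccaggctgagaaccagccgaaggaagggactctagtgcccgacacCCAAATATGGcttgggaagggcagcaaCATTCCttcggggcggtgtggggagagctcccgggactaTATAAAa
Capitals mark matches to M-CAT, the element bound by TEAD factors (CATTCC, read as GGAATG on the other strand), to the serum response factor element CArG, to the NKX2-5 motif with letters TNAAGTG and, on the forward strand only, to the TATA box with letters TATAAA. The motif of GATA factors (letters GATAAG) and that of AP-1 (letters TGANTCA) were also searched, on both strands. No 2 of the marked motifs overlap. In the Nppb promoter an M-CAT lay 105 to 100 bases before the start, and in the Ankrd1 promoter 2 lay 210 to 205 and 123 to 118 bases before it. In the Acta1 promoter an M-CAT lay 46 to 41 bases before the start and a CArG box 73 to 64 bases before it. The Nppa promoter held an NKX2-5 match 241 to 235 bases before the start and no M-CAT. Of the promoters not shown, Xirp2 held an AP-1 match 107 to 101 bases before the start, Flnc an M-CAT 104 to 99 bases before the second of 2 starts, and Tnfrsf12a none of the 6 motifs. Among 32851 mouse promoters of the same length, 12.6% held M-CAT, 6.75% AP-1, 10.1% NKX2-5, 1.47% CArG, 6.55% GATA and 7.59% TATA. A match is a description of letters, and binding was not measured.

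All 7 genes were higher in cardiomyocyte-like nuclei of saline-injured hearts than of sham hearts, with no overlap between the libraries of the 2 groups in CPM. In the same fit 45.2% of 13981 tested genes were called in either direction (adjusted p under 0.05, edgeR's quasi-likelihood test with Benjamini-Hochberg adjustment), and 23.6% were called higher. The median log2 fold change was 2.24 over the 7 genes and 0.01 over all tested genes. Flnc and Ankrd1 rose most on the log2 scale and Nppa least.

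Nppb stood at 43.1, 24.3 and 89.3 CPM in the 3 sham libraries and at 294, 237 and 317 CPM in the 3 saline-injured libraries. Every injured library was above every sham library, and the ratio of group means was 5.41 (282 ± 41.3 against 52.2 ± 33.5 CPM; log2 fold change 2.44, SE 0.38, adjusted p = 0.000729). Nppa stood at 42.4, 12.6 and 41.5 CPM in sham hearts and at 49.5, 66.7 and 169 CPM in saline-injured hearts, so the first saline-injured library was just above the sham range and the third was far above it. The ratio of means for Nppa was 2.96 (log2 fold change 1.58, SE 0.56, adjusted p = 0.042). The Nppa call did not hold when any of NS-Sham 1, 2 or 3, NS-I/R 3 or Enpa-I/R 2 was left out, with log2 fold changes of 1.83, 1.18, 1.81, 0.88 and 1.57 and adjusted p of 0.0614, 0.122, 0.0657, 0.14 and 0.0603, nor with the 6 libraries of the comparison alone (1.57, adjusted p = 0.0531), nor with nuclei of up to 20% mitochondrial UMIs (1.03, adjusted p = 0.23). It held in 13 of 20 alternatives.

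Ankrd1 had 414, 556 and 770.1 CPM in sham hearts and 4535, 4565 and 2737 CPM in saline-injured hearts. The ratio of means was 6.80 (log2 fold change 2.77, SE 0.27, adjusted p = 6.08e-05), and the third injured library was the lowest of its group. In raw counts, Ankrd1 had library means of 4.07 to 6.59 UMIs per nucleus in sham hearts, 27.0 to 52.4 in saline-injured hearts and 15.95 to 24.3 in enpatoran-treated hearts. Acta1 had 21.0, 4.52 and 15.7 CPM in sham hearts and 102, 34.1 and 32.2 CPM in saline-injured hearts, with 1 injured library well above the other two. Its ratio of means was 4.06 (log2 fold change 2.05, SE 0.55, adjusted p = 0.0127), and without NS-I/R 1 the log2 fold change was 1.30 (adjusted p = 0.0492). The Acta1 call held in 18 of 20 alternatives. It was lost without nuclei holding 2 UMIs of 5 atrial markers (1.03, adjusted p = 0.101) and with nuclei of up to 20% mitochondrial UMIs (1.18, adjusted p = 0.11). The 5 markers include Kcnj3, and nuclei with at least 2 of their UMIs made up 62.9%, 77.2% and 64.9% in the sham libraries. In the saline-injured libraries they made up 25.8%, 38.5% and 31.0%, so that alternative removed most sham nuclei.

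Flnc had the largest change of the 7 genes on the log2 scale. It stood at 144, 83.1 and 102 CPM in sham hearts and at 815, 909 and 960.0 CPM in saline-injured hearts, a ratio of means of 8.15 (log2 fold change 3.03, SE 0.20, adjusted p = 8.18e-06). Xirp2 was already at 853, 958 and 1152 CPM in sham hearts and reached 2763, 2467 and 6821 CPM in saline-injured hearts. The third injured library was far above the other two, and the Xirp2 log2 fold change of 2.02 (SE 0.36, adjusted p = 0.00147) became 1.40 without it (adjusted p = 7.39e-05). Tnfrsf12a, the receptor gene, had 9.26, 10.2 and 15.6 CPM in sham hearts and 60.3, 57.7 and 47.3 CPM in saline-injured hearts. Its ratio of means was 4.71 (log2 fold change 2.24, SE 0.22, adjusted p = 5.4e-05). Per nucleus, raw Xirp2 means were 8.38 to 11.0 UMIs in sham, 28.3 to 67.2 in saline-injured and 17.4 to 30.9 in enpatoran-treated libraries, and those of Flnc 0.873 to 1.41, 9.19 to 10.4 and 2.88 to 4.35. The other genes were scarce: Tnfrsf12a means were 0.0910 to 0.133, 0.466 to 0.681 and 0.330 to 0.368 UMIs per nucleus in the same order, and those of Nppb 0.278 to 0.764, 2.72 to 3.32 and 1.54 to 3.17.

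**Figure D1:**
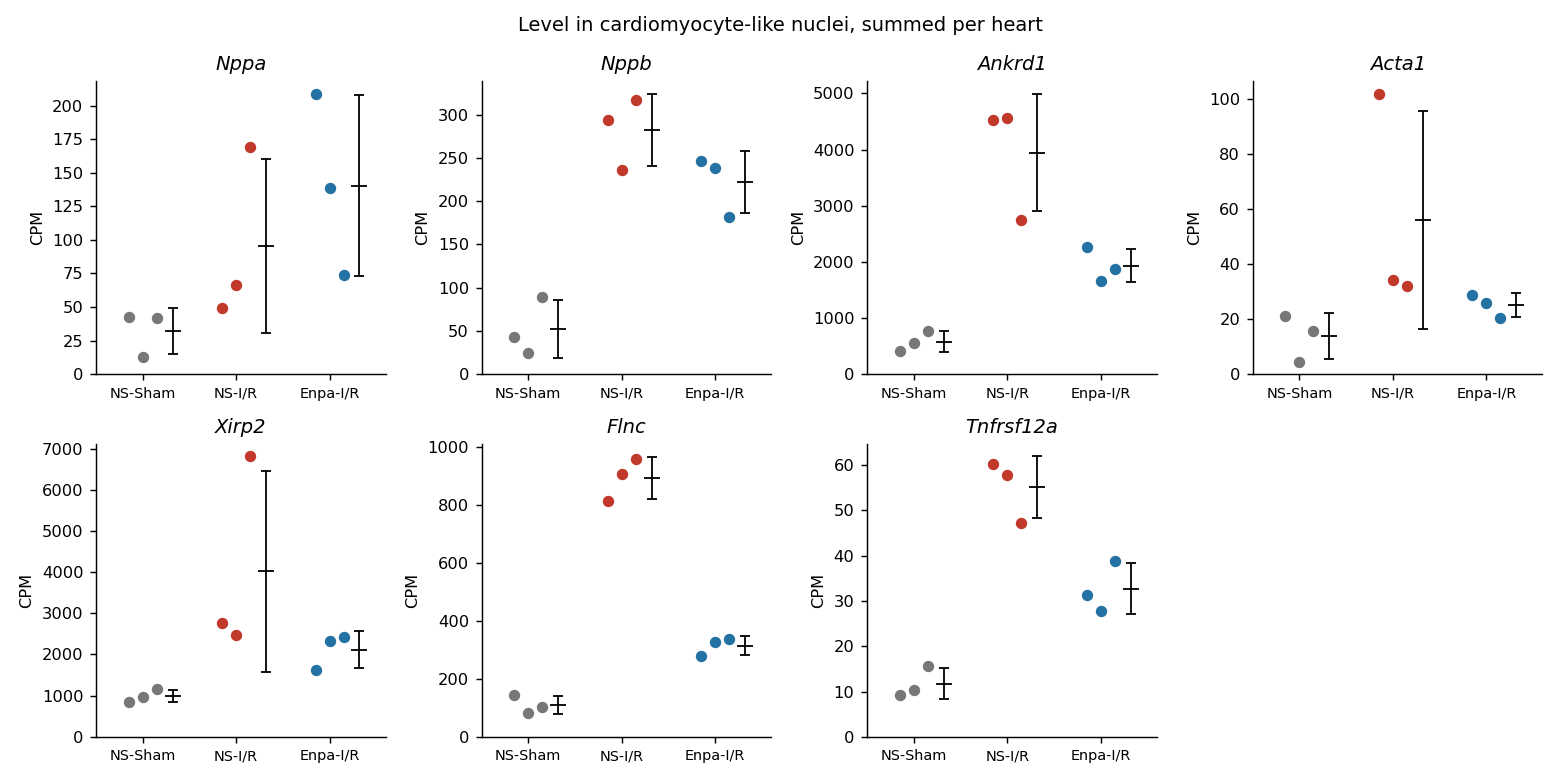
Level of each of the 7 genes in cardiomyocyte-like nuclei (vertical axis, scaled CPM on a linear scale from 0, with its own range in each panel; points are libraries, the bar beside them is the group mean ± SD). In each panel the red NS-I/R points lie above the grey NS-Sham points, and for Flnc the blue Enpa-I/R points (278 to 339 CPM) lie between the other groups.

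Between the injured groups, 3 of the 7 genes were lower with enpatoran than with saline: Flnc, Ankrd1 and Tnfrsf12a. In the same fit 18.4% of tested genes were called in either direction and 11.0% were called lower. The median log2 difference was −0.92 over the 7 genes and −0.00 over all tested genes. These comparisons share the saline-injured libraries with the comparison above. Same-direction changes across the 2 comparisons are therefore not independent of each other.

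Flnc had 278, 328 and 339 CPM in enpatoran-treated hearts, with a ratio of means to saline-injured hearts of 0.352 (log2 difference −1.51, SE 0.19, adjusted p = 0.00609). Every enpatoran-treated library was below every saline-injured library and above every sham library. Ankrd1 had 2256, 1665 and 1879 CPM in enpatoran-treated hearts, a ratio of 0.490 (log2 difference −1.03, SE 0.26, adjusted p = 0.0266). Tnfrsf12a had 31.4, 27.7 and 38.8 CPM, a ratio of 0.593 (log2 difference −0.75, SE 0.20, adjusted p = 0.0332). Both of these genes also lay between the sham and saline-injured ranges in every library. The Flnc call held with each library left out (adjusted p up to 0.0358). The Ankrd1 and Tnfrsf12a calls did not hold without any one of NS-I/R 1, NS-I/R 2 or Enpa-I/R 1, 2 or 3: for Ankrd1 the log2 differences were −0.93, −0.92, −1.15, −0.93 and −1.01 (adjusted p 0.0961, 0.0982, 0.0665, 0.0882 and 0.0835), and for Tnfrsf12a −0.69, −0.72, −0.72, −0.65 and −0.89 (adjusted p 0.114, 0.109, 0.103, 0.107 and 0.0611). With the replicate number as a block, the Ankrd1 difference was −1.03 with adjusted p = 0.0504. With the 6 libraries of the comparison alone, neither passed (adjusted p = 0.0545 for Ankrd1 and 0.0546 for Tnfrsf12a). Of 20 alternatives, 13 kept the Ankrd1 call and 14 the Tnfrsf12a call.

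The other 4 genes did not pass the test between the injured groups. Xirp2 had 1614, 2328 and 2415 CPM in enpatoran-treated hearts and Acta1 28.9, 25.9 and 20.2 CPM, in both cases without overlap with saline-injured hearts but with larger spread in saline-injured hearts (log2 difference −0.92, SE 0.35, adjusted p = 0.0856 for Xirp2 and −1.16, SE 0.53, adjusted p = 0.144 for Acta1). Without NS-I/R 3 the Xirp2 difference was −0.30 (adjusted p = 0.208) and the Acta1 difference −1.42 (adjusted p = 0.0421), while without NS-I/R 1 the Acta1 difference was −0.41 (adjusted p = 0.589). Each of the 2 genes passed in 2 of 20 alternatives, with no low-count filter (adjusted p = 0.00729 for Xirp2 and 0.0119 for Acta1) and, for Xirp2, by the DESeq2 Wald test (0.0379). Both natriuretic peptide genes overlapped between the injured groups. Nppb had 246, 239 and 181 CPM in enpatoran-treated hearts (log2 difference −0.35, SE 0.36, adjusted p = 0.508), and Nppa had 209, 139 and 73.8 CPM (0.56, SE 0.54, adjusted p = 0.476), the only one of the 7 with a higher mean under enpatoran.

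Enpatoran-treated hearts were above sham hearts for 5 of the 7 genes, where 17.9% of tested genes were called in either direction and 8.91% were called higher. The log2 fold change was 2.14 (adjusted p = 0.0273) for Nppa, 2.10 (0.00477) for Nppb, 1.74 (0.00205) for Ankrd1, 1.52 (0.000787) for Flnc and 1.49 (0.00159) for Tnfrsf12a. Acta1 (0.90, adjusted p = 0.294) and Xirp2 (1.10, adjusted p = 0.0534) did not pass. Xirp2 passed in 12 of 20 alternatives (log2 fold change 1.00 to 1.64, adjusted p 0.000741 to 0.159). Among them were the replicate number as a block (adjusted p = 0.0257), the 6 libraries of the comparison alone (0.00168) and any 1 saline-injured library left out (0.044, 0.033 and 0.000741). The Nppa call did not hold without any one of NS-Sham 1, 2 or 3 or Enpa-I/R 1 or 2 (log2 fold changes 2.40, 1.75, 2.37, 1.73 and 2.15, adjusted p 0.0566, 0.0856, 0.063, 0.101 and 0.0633), nor with nuclei of up to 20% mitochondrial UMIs (1.52, adjusted p = 0.156). It held in 14 of 20 alternatives.

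**Figure D2:**
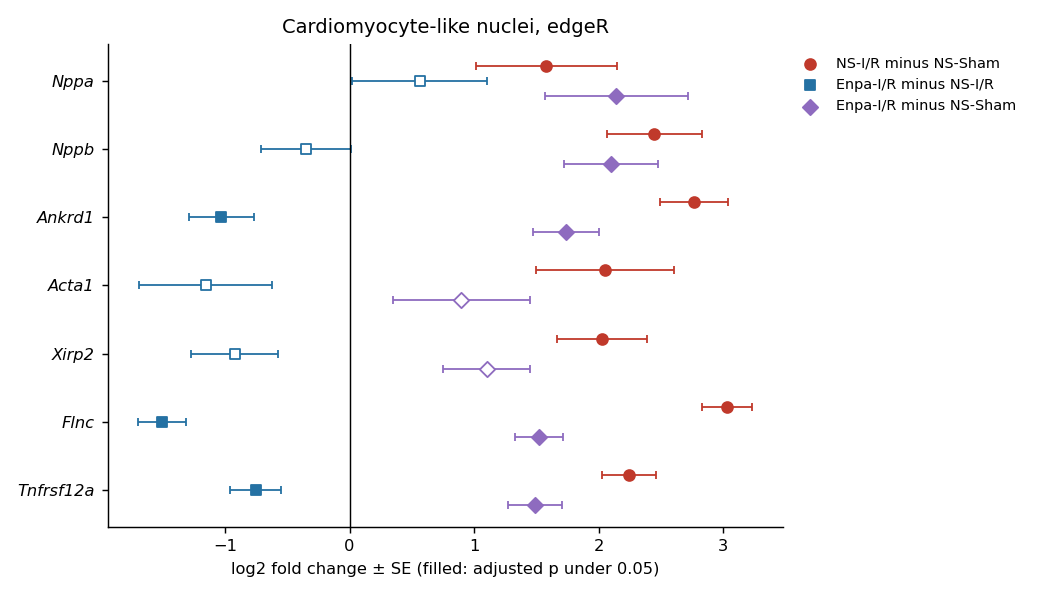
Fitted log2 fold change ± SE of each gene in cardiomyocyte-like nuclei for the 3 comparisons (horizontal axis; filled symbols have an edgeR adjusted p under 0.05). All 7 red values lie above 0 for saline-injured against sham hearts, and Flnc at −1.51 is the lowest of the blue values for enpatoran-treated against saline-injured hearts.

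The share of nuclei with at least 1 UMI was compared after each nucleus was thinned to 1000 UMIs, so that depth was equal; 53, 22 and 30 shallower nuclei were left out in sham hearts, saline-injured hearts and enpatoran-treated hearts. Ankrd1 was detected in 29.96% ± 6.67 of nuclei in sham hearts, in 73.7% ± 6.13 in saline-injured hearts and in 52.8% ± 5.30 in enpatoran-treated hearts. Flnc was detected in 9.42% ± 1.88, 31.4% ± 1.70 and 21.0% ± 1.41, and Nppb in 4.05% ± 2.52, 19.8% ± 2.73 and 16.6% ± 2.51. Nppa (2.67% ± 1.48, 7.10% ± 3.12 and 9.59% ± 4.12), Acta1 (1.24% ± 0.592, 4.73% ± 3.40 and 3.07% ± 0.601) and Tnfrsf12a (1.34% ± 0.279, 6.02% ± 1.04 and 3.45% ± 0.387) were found in fewer nuclei. For these 6 genes the saline-injured shares were above the sham shares without overlap, where 18.6% of genes were higher without overlap. Ankrd1, Flnc and Tnfrsf12a were lower in enpatoran-treated hearts than in saline-injured hearts without overlap, against 13.7% of genes. The exact two-sided permutation test over libraries gave p = 0.1 for each such difference, the smallest value that 3 against 3 libraries allow (adjusted p = 0.14 over 21 tests).

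Xirp2 differed from the other 6 genes in this measure. At equal depth it was detected in 42.0%, 48.6% and 48.8% of nuclei in the sham libraries, in 38.0%, 35.1% and 56.5% in saline-injured hearts and in 42.4%, 49.6% and 48.9% in enpatoran-treated hearts. Without NS-I/R 3 the injured shares lay below all sham shares, although the CPM of both remaining libraries lay above all sham values.

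Without thinning, Ankrd1 was found in 52.7% to 67.5% of nuclei in sham hearts, 89.3% to 95.5% in saline-injured hearts and 77.0% to 87.0% in enpatoran-treated hearts, and Xirp2 in 79.2% to 89.8%, 76.1% to 89.6% and 81.7% to 89.2%.

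Measures of the spread between nuclei differed between the groups for some of the genes. The Fano factor, the variance of the thinned counts divided by their mean, is 1 for counting error alone. For Xirp2 it was 2.53, 4.28 and 3.69 in the sham libraries, 17.6, 21.1 and 24.97 in saline-injured hearts and 12.4, 25.4 and 16.2 in enpatoran-treated hearts. The 10% of nuclei with the most Xirp2 UMIs held 47.3% to 48.6% of them in sham hearts, 64.0% to 81.8% in saline-injured hearts and 68.1% to 76.9% in enpatoran-treated hearts, so in every injured library a small share of nuclei carried most of the transcript. A single unthinned nucleus held up to 1863 Xirp2 UMIs. Ankrd1 moved the other way by this measure, from 53.1% to 68.7% in sham hearts to 32.3% to 38.5% in saline-injured hearts and 43.8% to 50.2% in enpatoran-treated hearts, while it was found in more nuclei. For sparse counts this share falls as the mean count rises, so the Ankrd1 values do not show a more even spread. Over the 7 genes the Fano factor was higher without overlap in saline-injured hearts than in sham hearts for 5 (Nppb, Ankrd1, Acta1, Xirp2 and Flnc), against 11.3% of genes (exact permutation p = 0.1 each, adjusted p = 0.21). Tnfrsf12a stayed near 1 in every library (0.953 to 1.05), and Nppa overlapped between the groups. Tnfrsf12a averaged 0.0369 UMIs per thinned nucleus, a mean so low that the factor can show little of the spread. At equal relative spread the factor also grows with the mean, and the genes behind the 11.3% were not matched for mean.

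**Figure D3:**
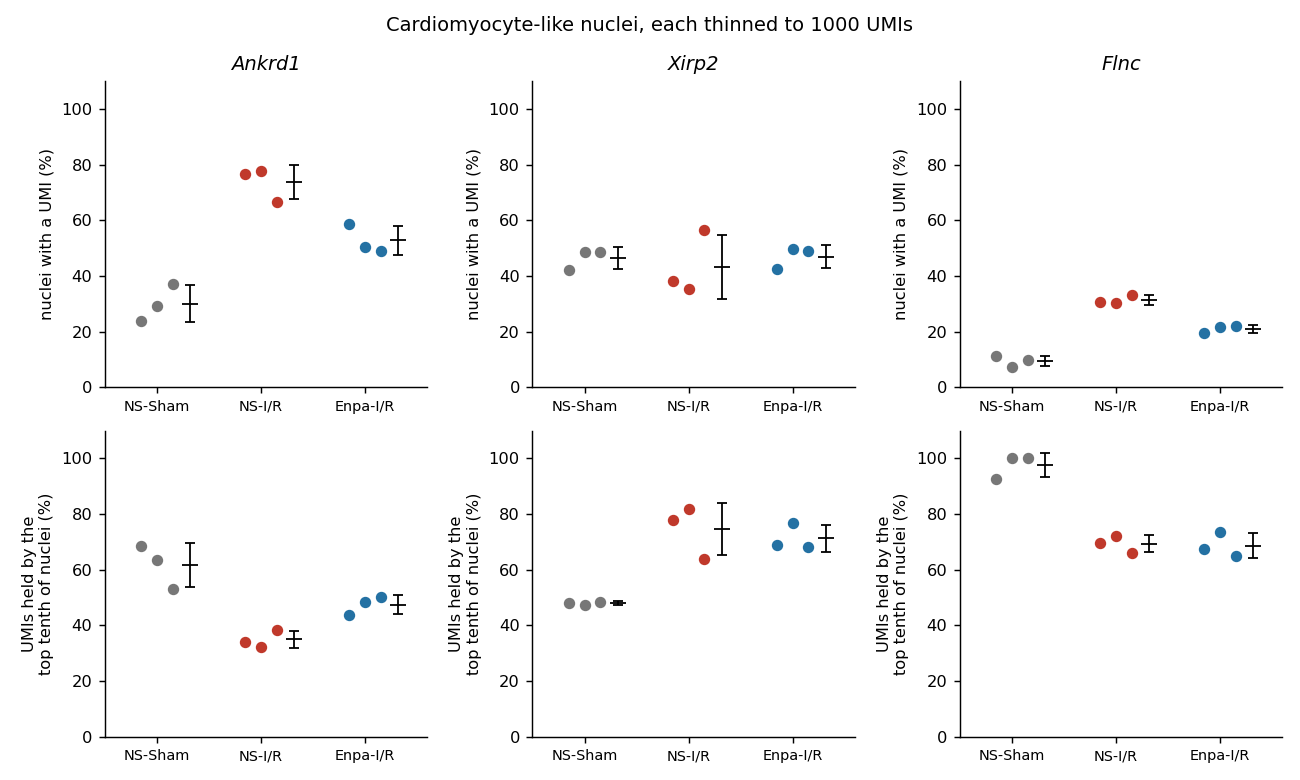
Ankrd1, Xirp2 and Flnc in cardiomyocyte-like nuclei thinned to 1000 UMIs: the upper panels give the percentage of nuclei with a UMI, the lower panels the percentage of the gene's UMIs held by the 10% of nuclei with the most (points are libraries, the bar beside them is the group mean ± SD). For Xirp2 the lower values go from at most 48.6% in sham hearts to at least 64.0% in saline-injured hearts, while the upper values overlap.

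The share of nuclei with several of the genes differed between the 3 groups without overlap. Of thinned nuclei, 4.47% ± 1.49 held at least 3 of the 7 genes in sham hearts, 29.1% ± 3.90 in saline-injured hearts and 20.2% ± 3.105 in enpatoran-treated hearts, and 33.9% ± 5.86, 12.6% ± 0.698 and 21.2% ± 1.97 held none. Higher shares of the single genes move both values this way by themselves, and the product of shares was not computed for these values. Xirp2 and Flnc were found together in 568 saline-injured nuclei, where the product of their shares gives 394. Their correlation between nuclei within a library was 0.343 to 0.642 in saline-injured hearts and 0.429 to 0.486 in enpatoran-treated hearts, against 0.0382 to 0.0985 in sham hearts. Nuclei of a library share its preparation. Of all pairs this one had the highest median correlation in both injured groups. A correlation of sparse counts also grows with their mean, and Flnc was scarcest in sham hearts. The observed number over the product was 1.38 to 1.53 in saline-injured, 1.12 to 1.33 in enpatoran-treated and 1.11 to 1.23 in sham libraries. Nppa and Nppb were found together in 99 saline-injured nuclei where the product gives 42.0, and in 100 enpatoran-treated nuclei where it gives 50.8.

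The 4 cardiomyocyte-like clusters were filled differently by the groups, so a change over the class mixes a change within clusters with a change in their shares. Cluster 2 held 68.5% ± 10.3 of these nuclei in sham hearts, 1.34% ± 1.94 in saline-injured hearts and 15.3% ± 4.85 in enpatoran-treated hearts. Cluster 19 held 0.0230%, 50.1% ± 11.0 and 18.7% ± 2.07, and cluster 4 held 7.24% ± 2.51, 38.5% ± 8.82 and 51.6% ± 5.09. Cluster 0 held 24.3% ± 8.26, 10.0% ± 1.52 and 14.5% ± 4.45. Cluster sizes are given only to place the 7 genes, since other genes that differ between the groups shaped the clusters.

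In saline-injured hearts most of the RNA of each of these genes lay in cluster 19. With 50.1% of the pooled saline-injured cardiomyocyte-like nuclei, it held 93.7% of their Xirp2 UMIs, 91.9% of Flnc, 82.2% of Nppb, 80.2% of Ankrd1, 74.3% of Tnfrsf12a, 69.7% of Nppa and 58.7% of Acta1. In enpatoran-treated hearts, with 18.9% of nuclei, it held 65.2% of Xirp2, 53.0% of Flnc, 46.4% of Nppb and 43.6% of Ankrd1. Its shares of Acta1 (37.5%), Tnfrsf12a (34.6%) and Nppa (27.1%) were lower. Acta1 and Nppa had the smallest shares of their UMIs there in saline-injured hearts. These shares do not take depth into account. In pooled saline-injured nuclei Acta1 stood at 57.9, 47.1, 103 and 2.06 CPM in clusters 19, 4, 0 and 2. Nppa stood at 120, 59.8, 121 and 26.8 CPM in the same order, so neither was highest in cluster 19. The pooled shares also weigh libraries unequally: NS-I/R 3 gave 61225 of the 115136 Xirp2 UMIs of saline-injured nuclei in cluster 19. Within cluster 19, Xirp2 stood at 4396, 3825 and 15947 CPM in the saline-injured libraries and at 4763, 9477 and 6601 CPM in enpatoran-treated hearts, 2 overlapping ranges. Between the injured groups within this cluster, the log2 difference was −0.49 for Ankrd1 (adjusted p = 0.16), −0.93 for Flnc (0.11) and −0.44 for Tnfrsf12a (0.16). None of the 11024 genes tested in this cluster was called in this comparison (0.0%, edgeR), so the missing calls are not particular to the 7 genes. The libraries did not overlap for Ankrd1 (4538 to 6462 CPM in saline-injured against 3974 to 4188 CPM in enpatoran-treated hearts), Flnc (1287 to 2127 against 666 to 1189 CPM) or Tnfrsf12a (62.8 to 82.9 against 48.5 to 59.6 CPM). In clusters 0 and 4 none of the 7 genes was called between the injured groups either, where 1.8% and 1.72% of all tested genes were. Between enpatoran-treated and sham hearts 0 of the 7 were called in cluster 2 and 1 in cluster 4, where 13.2% and 5.27% of all tested genes were.

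Cluster 0 had nuclei in all groups. Within it 5 of the 7 genes were called higher in saline-injured hearts than in sham hearts, where 6.74% of tested genes were called higher: Tnfrsf12a (log2 fold change 2.48), Acta1 (2.06), Ankrd1 (1.91), Nppb (1.63) and Flnc (1.12). Median depths in cluster 0 were 1795.5 to 2484 UMIs, below those of the other cardiomyocyte-like clusters in every library. Tnfrsf12a rested there on 6, 6 and 6 UMIs in the sham libraries and 12, 9 and 20 in the saline-injured libraries. Acta1 overlapped between these groups, at 13.5 to 31.5 CPM in sham hearts and 27.0 to 190 CPM in saline-injured hearts. In cluster 4, where 8.07% of genes were called lower, Xirp2 and Nppa were lower. Xirp2 there fell from 1913, 2973 and 3799 CPM in sham hearts to 404, 334 and 856 CPM in saline-injured hearts (log2 fold change −2.44, adjusted p = 0.0019), and Nppa fell from 281, 146 and 161 CPM to 27.4, 57.2 and 89.6 CPM (−1.76, adjusted p = 0.020). For both genes the cluster 4 direction was opposite to that of the whole class. Cluster 4 held 88, 71 and 66 nuclei in the sham libraries and 278, 366 and 478 in the saline-injured libraries.

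**Figure D4:**
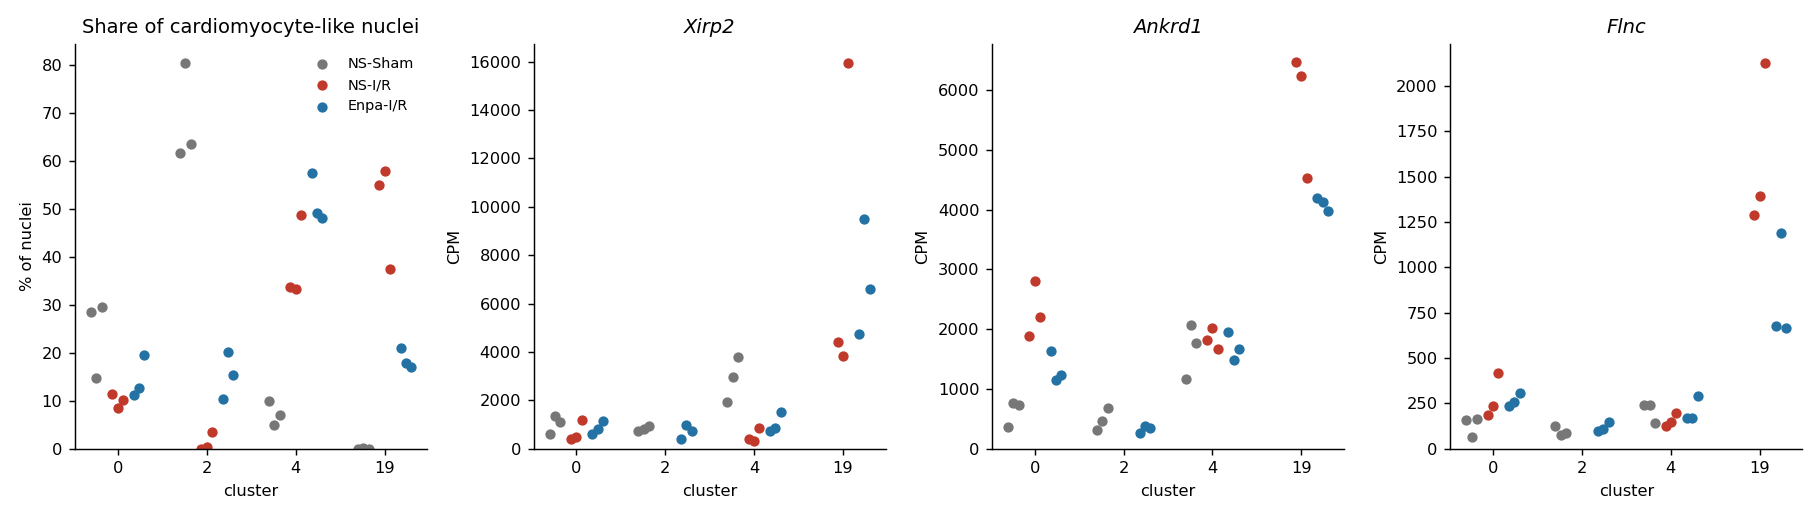
Left, percentage of each library's cardiomyocyte-like nuclei in clusters 0, 2, 4 and 19; other panels, scaled CPM of Xirp2, Ankrd1 and Flnc within each cluster (points are libraries; a group is drawn only where each of its libraries had at least 20 nuclei in the cluster). The points of cluster 19 are the highest for Ankrd1 and Flnc, and in that cluster Xirp2 reaches 15947 CPM in the third NS-I/R library.

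Nppa is made mainly in the atria, so nuclei with at least 2 UMIs of the 4 atrial markers Sln, Myl7, Myl4 and Bmp10 were counted. They made up 1.21% to 7.97% of cardiomyocyte-like nuclei, and the highest share, in Enpa-I/R 1, was 109 nuclei with 48.7% of that library's Nppa UMIs. In NS-Sham 1, 33 such nuclei held 60.9% of its Nppa UMIs. Few nuclei carried much of the Nppa RNA in every library. Cardiomyocyte-like nuclei with at least 10 Nppa UMIs, 7 to 85 per library, held 38.1% to 71.5% of a library's Nppa UMIs. In NS-I/R 3 they were 47 nuclei with 64.4% of its Nppa UMIs, and 5 of the 47 had 2 UMIs of the 4 atrial markers. In Enpa-I/R 1, 42 of 85 had them. Of the 4 tested genes on the atrial list, Kcnj3, a channel subunit, passed: it fell by 2.19 with injury (adjusted p = 1.95e-05), was higher with enpatoran than with saline (0.88, adjusted p = 0.0137) and was found in 74.8% to 85.6% of sham cardiomyocyte-like nuclei. In the nuclei with fewer than 2 UMIs of the 4 markers Nppa stood at 18.2, 9.01 and 27.7 CPM in sham hearts, 48.3, 56.6 and 157 CPM in saline-injured hearts and 113, 137 and 69.7 CPM in enpatoran-treated hearts. Without the atrial-marker nuclei, the Nppa log2 fold change of saline-injured hearts against sham hearts was 2.26 (adjusted p = 0.00434), in an alternative chosen after the data were seen.

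With the counts of all nuclei of a library summed, 6 of the 7 genes were called higher in saline-injured hearts than in sham hearts, where 23.9% of 18066 tested genes were called higher; Nppa was not (log2 fold change 1.21, adjusted p = 0.0801). Between the injured groups Flnc was called lower (−1.26, adjusted p = 0.00589), where 8.74% were called lower; a sum over all nuclei mixes the level per nucleus with the share of cardiomyocytes.

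Outside the cardiomyocyte-like class, 43 fits of the 7 genes in 7 other classes were possible. In saline-injured hearts against sham hearts 32 of them were called higher, where 14.2% of all fits in those classes were called higher. Between the injured groups 3 were called (Flnc in endothelial-like, Tnfrsf12a in fibroblast-like and Nppa in smooth muscle-like nuclei), where 5.35% were called in either direction. RNA released from broken cells can enter any droplet. Raw UMIs of each gene per cardiomyocyte-like nucleus, not corrected for depth, exceeded those per endothelial-like nucleus of the same library. The median ratio was 6.53 (Acta1) to 65.1 (Xirp2). At 1000 UMIs Ankrd1 was found in 9.06%, 32.5% and 27.2% of endothelial-like nuclei in sham hearts, saline-injured hearts and enpatoran-treated hearts, against 29.96%, 73.7% and 52.8% of cardiomyocyte-like nuclei. Their median depths were 1438 to 2033 and 6434.5 to 10699.5 UMIs, so the raw ratios above include the difference in depth. The Acta1 ratio was lowest in Enpa-I/R 3 (3.75), where cardiomyocyte-like and endothelial-like median depths were 6848 and 1438 UMIs. It was 3.97 in NS-Sham 2 (9740 and 1744 UMIs) and 4.95 in Enpa-I/R 2 (10699.5 and 2033 UMIs). In these libraries depth differed by a larger factor than Acta1, so per UMI Acta1 was not higher in cardiomyocyte-like nuclei. In the other libraries the Acta1 ratio was the larger factor. The Acta1 ratio was highest in NS-I/R 2 (15.3), with 8874 and 1589 UMIs. Calls of cardiomyocyte genes in other classes are not read as expression there, and the source of these counts was not tested.

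In droplets of fibroblast-like nuclei Tnfrsf12a counts were called higher with injury and lower with enpatoran, where 23.4% of genes tested in that class were called higher and 5.82% lower. The level there was 3.69, 2.98 and 4.12 CPM in sham hearts, 39.2, 38.9 and 36.8 CPM in saline-injured hearts and 27.96, 21.4 and 21.5 CPM in enpatoran-treated hearts, and the 3 groups did not overlap. The log2 fold change with injury was 3.46 (adjusted p = 7.15e-07), and that of enpatoran against saline was −0.69 (adjusted p = 0.0261), a call that held in 8 of 14 alternatives (adjusted p 0.00328 to 0.107). At 1000 UMIs per nucleus Tnfrsf12a was found in 0.284% ± 0.111, 3.79% ± 0.918 and 1.59% ± 0.105 of fibroblast-like nuclei in sham, saline-injured and enpatoran-treated hearts, and in 0.338% ± 0.222, 1.86% ± 0.364 and 1.92% ± 0.317 of endothelial-like nuclei. The composition of stray RNA was not measured. For each 100 Ankrd1 UMIs there were 1.26 to 1.73 Tnfrsf12a UMIs in cardiomyocyte-like nuclei of saline-injured hearts, 4.66 to 4.82 in endothelial-like and 14.9 to 16.8 in fibroblast-like nuclei. How much of the fibroblast-like signal is stray RNA was not tested. In smooth muscle-like nuclei Tnfrsf12a was already at 28.9, 30.3 and 29.7 CPM in sham hearts and at 18.3, 24.0 and 39.4 CPM in saline-injured hearts, and in endothelial-like nuclei it went from 3.27 to 4.85 CPM to 16.8 to 25.8 CPM (log2 fold change 2.45, adjusted p = 2.67e-05).

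**Figure D5:**
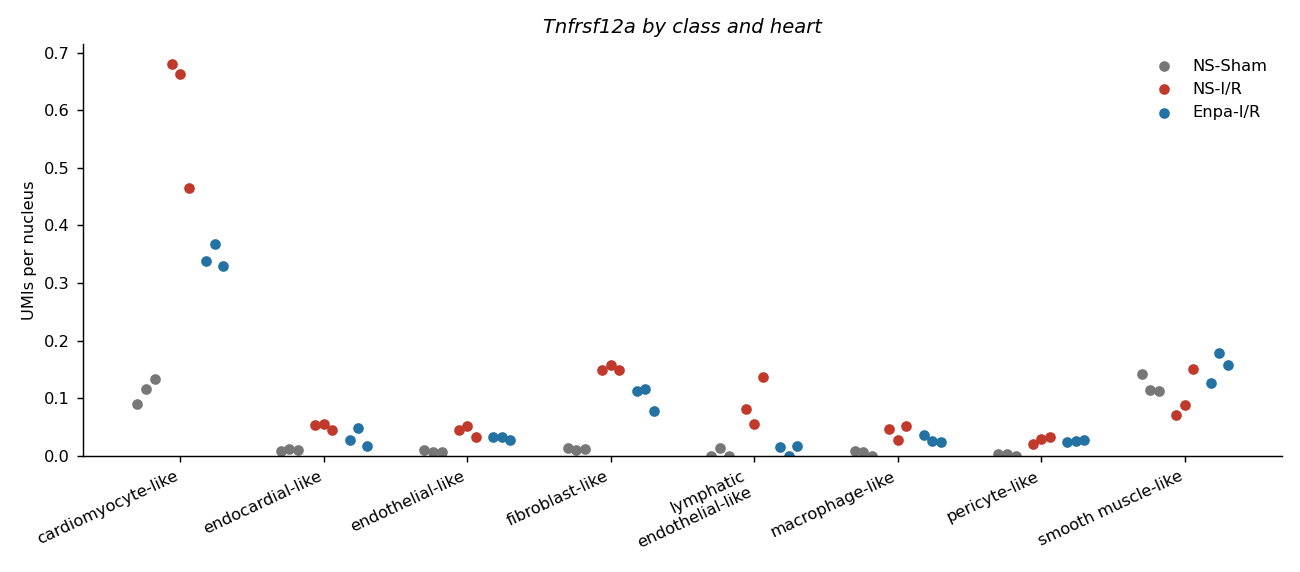
Raw Tnfrsf12a UMIs per nucleus (vertical axis) by class; points are libraries, coloured by group. Fibroblast-like nuclei are at 0.0105 to 0.0133 in sham hearts, 0.149 to 0.158 in saline-injured hearts and 0.0785 to 0.117 in enpatoran-treated hearts, below the cardiomyocyte-like nuclei of the same injured groups.

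Genes of related pathways were read in cardiomyocyte-like nuclei from lists chosen with earlier results of these data known. Over all genes tested there, 23.6% were called higher and 21.5% lower in saline-injured hearts than in sham hearts, and 7.4% higher and 11.0% lower in enpatoran-treated hearts than in saline-injured hearts. Of 24 Z-disc and load-responsive partners, 15 were higher and 2 lower in saline-injured hearts than in sham hearts (median log2 fold change 1.14), and 2 were higher and 8 lower in enpatoran-treated hearts than in saline-injured hearts (median −0.44). Actn1, a non-muscle alpha-actinin, rose by 3.55 and Flna, filamin A, by 3.43 on the log2 scale; both were lower with enpatoran (−1.29 and −1.23). Fhl1, a LIM-domain protein of the sarcomere, rose by 3.09 (adjusted p = 0.000119), while Filip1l fell by 2.01 (adjusted p = 6.67e-05). Of 8 tested genes of the natriuretic peptide axis only Mme, which encodes the peptide-degrading enzyme neprilysin, passed, falling by 2.19 (adjusted p = 0.000384); Corin, the protease that activates the Nppa product, was at −0.01 (adjusted p = 0.965). Prkg1, the kinase downstream of the peptide receptors, was higher with enpatoran than with saline (0.79, adjusted p = 0.0245). Of 5 tested fetal-type contractile genes Acta2 rose by 4.19 (adjusted p = 9.25e-05) and Myh7, the slow myosin heavy chain, fell by 0.99 (adjusted p = 0.00239). Between the injured groups Acta2, also a smooth muscle marker, was lower with enpatoran (−1.77, adjusted p = 0.019) and Tpm2 was higher (1.51, adjusted p = 0.0156).

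Among 23 transcription factors and co-factors of the cardiac stress programme, 8 were higher and 4 lower in saline-injured hearts than in sham hearts, and 4 were lower in enpatoran-treated hearts than in saline-injured hearts. With 12 of 23 called with injury, against 45.2% of all tested genes, the list was near the background, and its median log2 fold change was 0.07. Klf6 rose by 2.46 (adjusted p = 3.2e-06), Atf3 by 3.29 (0.000373) and Ccn2, a secreted target of TEAD factors, by 2.67 (5.23e-05), and all 3 were lower with enpatoran (−1.15, −1.51 and −0.83). Mef2c and Mrtfb fell by 1.14 each with injury. Of 8 tested genes of the TWEAK pathway, 4 were higher with injury, against 23.6% of all tested genes; Relb, a subunit of the non-canonical NF-kappaB dimer, rose by 1.65 (adjusted p = 0.000711) and was lower with enpatoran (−1.17, adjusted p = 0.0183). Traf3 rose by 0.93 and Birc3 by 0.89, and both were lower with enpatoran.

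The genes whose level was most like each of the 7 over the 9 libraries were found by Pearson's r of log2(CPM + 1) among 7260 genes of the class; all points share the libraries and the group structure. For Ankrd1 they were Lrrfip1 and Eef1g (both 0.992), for Flnc Golga7 (0.988), Pvt1 (0.987) and Des (0.986), and for Tnfrsf12a Xbp1 (0.989). For Nppb they were Fgl2 (0.975) and Vps37b (0.974), for Xirp2 Srp19 (0.973), for Acta1 Ldlrad3 (0.953) and for Nppa Rps26 (0.929). Among the 7 genes the closest pair was Ankrd1 and Tnfrsf12a (0.987) and the least alike was Nppa and Acta1 (0.529).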

How the data were processed

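RNA of single nuclei from 9 mouse hearts was counted per gene and barcode. The authors deposited raw UMI counts in filtered 10x matrices; per the file headers these came from Cell Ranger 8.0.0, while the submitters' processing notes name Cell Ranger 6.1.1, Seurat, GRCh38 and GRCm39. The libraries were made with 10x 3' kit version 3.1, per the labels' protocols. Which annotation and strand setting were used is not given in the sources used here. The deposited counts were not normalized.

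Barcodes with under 500 genes or over 5% mitochondrial UMIs were removed, as were, in each library, those with the highest Scrublet scores (0.8% per 1000 barcodes), since Scrublet's own threshold marked 0 to 308 per library. Any pair of libraries shared at most 20 barcodes. Nuclei were clustered with scanpy 1.11.5 (2000 variable genes without the genes described, 30 components, 15 neighbours, Leiden resolution 1) and classes named from markers. For each class, the UMIs of a library's nuclei were added up and tested with edgeR 4.0.16 (quasi-likelihood F test, TMM, low-count filter, 9 libraries in 1 fit, no covariate) with Benjamini-Hochberg adjustment over all tested genes at 0.05. DESeq2 1.42.0 was an alternative. Shares and spread were computed in nuclei thinned to 1000 UMIs and tested by exact permutation over libraries.

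Named genes of the lists are the 3 with the largest fitted increase and the 3 with the largest decrease among called genes that averaged 10 CPM or more and whose libraries did not overlap; Mme, Corin, Prkg1 and Tpm2 were named after their values were seen. The genes described, the lists and the markers were chosen with earlier results of these data known. Same-numbered libraries did not pair. The classes rest on rebuilt clusters, and 1 cluster stayed unnamed.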

Additional observations from a re-analysis of the deposited data

Results flagged for a closer look

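Xirp2 and Nppa moved in opposite directions in parts of the cardiomyocyte-like class: in cluster 4 every NS-I/R library lay below every NS-Sham library, and over the whole class every NS-I/R library lay above. The ratio of mean CPM, NS-I/R to NS-Sham, was 0.296 for Nppa in cluster 4 against 2.96 over the class. For Xirp2 it was 0.184 in cluster 4 against 4.07 over the class. Xirp2 was also higher without overlap in endocardial-like (1.81), endothelial-like (1.72), fibroblast-like (1.62), macrophage-like (2.15) and pericyte-like nuclei (1.90). Cluster 4 is part of the class, and the difference between these ratios was not tested. It was small in NS-Sham, with 66 to 88 nuclei per library and median depths of 4984.5 to 6754 UMIs. In NS-I/R it held 278 to 478 nuclei per library with median depths of 8638.5 to 10955.5 UMIs. Its 225 NS-Sham nuclei, of 3293 in the class, held 437 of the 919 NS-Sham Nppa UMIs.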

How the results depend on the processing

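In cardiomyocyte-like nuclei as a whole, the fitted directions of all 7 genes were the same in all alternatives run. Genes called between Enpa-I/R and NS-I/R numbered 2578, and 300 with the 6 libraries of the contrast alone, 1640 without nuclei holding 2 UMIs of 5 atrial markers, and 53 to 6413 with single libraries left out. Of the 7 genes 3 were called there, and 5 with no low-count filter, 1 with 6 libraries, 0 within each of clusters 0, 4 and 19 (edgeR; 2, 3 and 3 at an unadjusted p under 0.05; 1.8%, 1.72% and 0.0% of all genes tested there called), and 1 to 4 with libraries left out. In Enpa-I/R against NS-Sham 2497 genes were called, 3910 with 6 libraries and 1404 to 4338 with libraries left out, and 5 of the 7 genes, 0 within cluster 2 (edgeR; 1 at an unadjusted p under 0.05; 13.2% of all genes called), 1 within cluster 4 and 4 to 6 with libraries left out. In NS-I/R against NS-Sham 6315 genes were called, 4785 to 8258 with libraries left out, and 7 of the 7 genes, 2 within cluster 4 and 6 to 7 with libraries left out. Over all nuclei, 1 of the 7 genes was called between the injured groups, 2 with DESeq2 size factors, 3 with the DESeq2 Wald test and 1 to 3 with libraries left out. In the other classes 32 calls became 21 to 31 with libraries left out, and the 3 between the injured groups became 8 with no low-count filter, 1 with 6 libraries and 0 to 8 with libraries left out. Genes of the 7 whose shares did not overlap numbered 6 to 7 and 3 to 4 with libraries left out. With the replicate number as a block, 7, 2 and 6 of the 7 genes were called in the 3 comparisons; the same numbers did not pair libraries, with correlations from -0.116 to 0.0758.

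For the cardiomyocyte-like class, reversed log2 values arose only within single clusters; in the other classes some differences that had not passed changed sign between alternatives, such as Nppa in pericyte-like nuclei (−0.33 to 0.96, NS-I/R against NS-Sham) and in endocardial-like nuclei (−2.98 to 1.23, Enpa-I/R against NS-I/R). In NS-I/R against NS-Sham they were −1.76 (Nppa), −0.41 (Nppb), −2.44 (Xirp2) and −0.41 (Flnc) in cluster 4 and −0.59 (Xirp2) in cluster 0. In Enpa-I/R against NS-I/R they were 0.18 (Nppb, cluster 19), 0.80 (Nppb), 0.95 (Xirp2) and 0.40 (Flnc) in cluster 4 and 0.35 (Xirp2) in cluster 0. In Enpa-I/R against NS-Sham they were −0.44 (Nppa), −0.93 (Acta1), −1.49 (Xirp2) and −0.0088 (Flnc) in cluster 4, −0.54 (Ankrd1) and −0.23 (Xirp2) in cluster 2 and −0.25 (Xirp2) in cluster 0. The cause was not tested.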

Other observations

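An unnamed cluster led by heat-shock genes held 412 NS-I/R nuclei, 8 Enpa-I/R nuclei and no NS-Sham nuclei. Its NS-I/R nuclei, 273, 98 and 41 in the 3 libraries, carried 1.11, 3.49 and 8.41 Ankrd1 UMIs, 0.363, 4.18 and 28.5 Xirp2 UMIs and 0.352, 2.42 and 11.0 Flnc UMIs per nucleus. In smooth muscle-like nuclei Nppa stood at 8.27, 2.33 and 29.7 CPM in NS-Sham, 18.3, 24.0 and 60.4 CPM in NS-I/R and 442, 400.1 and 195 CPM in Enpa-I/R (log2 difference between the injured groups 3.34, edgeR adjusted p = 0.0431), a call that held in 8 of 14 alternatives. In endocardial-like nuclei Nppa stood at 706 CPM in NS-I/R 2, against 18.3 and 49.5 CPM in the other NS-I/R libraries.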
